A study of Mus musculus with 61 samples.

Results

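SALL1 binding was compared between microglia of PWK mice and microglia of SPRET mice, using 1 list of reproducible ChIP-seq peaks per strain. A peak was called shared where it overlapped a peak of the other strain by at least 1 bp in the mm10 coordinates as listed. By this rule 662 sites were shared, each pairing 1 PWK peak with 1 SPRET peak, which left 2965 PWK-only peaks of 3627 in the PWK list and 1583 SPRET-only peaks in the shorter SPRET list. All 4 SALL1 lists of the series together held 21289 peaks.

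The series holds 61 libraries, of which 4 are the SALL1 libraries compared here, 2 from PWK and 2 from SPRET mice. PWK is an inbred strain derived from wild Mus musculus musculus, and SPRET is an inbred strain derived from wild Mus spretus, a separate species. Both strains are labelled wild type at Sall1, and no age, sex or number of animals is given for them here. The other readouts all came from mice labelled C57/Bl6, either wild type (WT) or homozygous for a deletion of the distant microglial Sall1 enhancer (EKO), which takes away SALL1 in microglia and leaves it in other brain cells. The labels describe whole microglia gated on CD45, CD11b and CX3CR1, while the study's methods place SALL1 ChIP-seq in nuclei that carried both PU.1 and SALL1 by sorting. Both libraries of a strain had been reduced to 1 list by their irreproducible discovery rate (IDR). No spread between libraries is therefore left for any single peak, and no test between the strains could be run. Intervals on shares below are 95% Wilson intervals, which cover the counting of peaks only. The lists give no read counts, so the depth behind each list is unknown.

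SALL1 is a zinc-finger transcription factor of the spalt family. Among the macrophages of the body its expression sets microglia apart, and loss of SALL1 in microglia is known to cost them much of their resting identity. It binds mostly at distal enhancers, beside factors such as PU.1, the ETS protein that opens macrophage enhancers, and SMAD4, the common partner of the SMADs that carry TGF-beta signals. Wild-derived strains differ from the reference strain at very many bases, so that the same enhancer exists in several natural sequence versions.

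The sites on which the comparison turns are shown as sequence, so that the shared and the strain-specific sites can be set side by side. They are the first 2 shared sites, 2 leading PWK-only peaks, the leading SPRET-only peak, and the first PWK-only and SPRET-only peaks on an assembled autosome that the C57/Bl6 list lacked. Each run is the central 150 bases of the peak, plus strand, from the C57BL/6J reference assembly (GRCm38, mm10). It is not the PWK or SPRET sequence. Capitals mark matches, on either strand, to the 10 motifs listed with the motif counts further on, and a run without capitals held none of those exact letters.
Elmo1, shared, chr13:20207999-20208148: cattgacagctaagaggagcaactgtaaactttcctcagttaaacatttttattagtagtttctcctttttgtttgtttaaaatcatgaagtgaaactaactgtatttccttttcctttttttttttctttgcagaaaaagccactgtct
Numb, shared, chr12:83929360-83929509: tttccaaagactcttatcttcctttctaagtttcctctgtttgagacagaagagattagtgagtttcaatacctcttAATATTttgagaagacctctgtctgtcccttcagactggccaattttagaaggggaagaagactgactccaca
Scel, PWK-only, chr14:103487066-103487215: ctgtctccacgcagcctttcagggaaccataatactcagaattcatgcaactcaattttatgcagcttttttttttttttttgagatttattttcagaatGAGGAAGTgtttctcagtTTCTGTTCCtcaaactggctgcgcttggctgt
Lpar6, PWK-only, chr14:73222658-73222807: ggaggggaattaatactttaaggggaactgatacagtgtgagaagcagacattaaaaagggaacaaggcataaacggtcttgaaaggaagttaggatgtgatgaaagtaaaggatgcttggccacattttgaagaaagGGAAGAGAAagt
Rnf169, SPRET-only, chr7:99962963-99963112: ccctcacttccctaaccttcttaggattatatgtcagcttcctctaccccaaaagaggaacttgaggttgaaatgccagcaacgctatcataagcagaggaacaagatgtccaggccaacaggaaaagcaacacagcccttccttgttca
Ext1, PWK-only, absent from the C57/Bl6 list, chr15:53557979-53558128: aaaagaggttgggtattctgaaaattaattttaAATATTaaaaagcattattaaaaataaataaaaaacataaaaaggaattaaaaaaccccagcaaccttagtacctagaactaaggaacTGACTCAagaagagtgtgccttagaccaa
Hs3st1, SPRET-only, absent from the C57/Bl6 list, chr5:39630934-39631083: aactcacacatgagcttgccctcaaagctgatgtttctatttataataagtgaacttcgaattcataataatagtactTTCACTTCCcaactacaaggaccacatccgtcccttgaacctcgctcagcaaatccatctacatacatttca

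The strongest site of the SPRET list was also among the strongest of the PWK list. It lay in an intron of Elmo1, which encodes an engulfment adaptor that activates Rac during phagocytosis, and it ranked 3 in PWK and 1 in SPRET. Ranks were set within each list by the IDR score and then by the enrichment score. The Elmo1 peak had an enrichment score of 106 in PWK and 111 in SPRET, and the lowest score listed was 8 in PWK and 10 in SPRET. Next came a site at −7501 bp from the nearest start of Numb, an endocytic adaptor that antagonises Notch, with ranks of 5 in PWK and 2 in SPRET. In the C57/Bl6 list, which was not used to choose these sites, the Elmo1 peak ranked 2 and the Numb peak ranked 1 of 15410. The leading pair of sites was therefore the same in all 3 strains up to a few ranks.

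Other leading shared sites lay near genes of varied function. A site in an intron of Ssh2, a phosphatase that activates the actin-severing protein cofilin, ranked 11 in PWK and 4 in SPRET, and its nearest start was that of Coro6. A site in an intron of Ppfia4, a liprin, ranked 22 in PWK and 3 in SPRET, with Myog as the nearest start. One site upstream of Scel ranked 9 in PWK and 24 in SPRET. The site in a noncoding or untranslated exon of Abca9, an ABC transporter, ranked 27 in PWK and 25 in SPRET. The site in Klri1, a lectin-like receptor of killer cells, ranked 45 in PWK and 21 in SPRET. The site in Fkbp5, a co-chaperone of the glucocorticoid receptor, ranked 65 in PWK and 8 in SPRET. The site upstream of Naa20, the catalytic subunit of an N-terminal acetyltransferase, ranked 37 in PWK and 36 in SPRET. The site in Evi2b, a gene within an intron of Nf1, ranked 20 in PWK and 54 in SPRET. All 10 of these leading shared sites were also in the C57/Bl6 list, at ranks from 1 to 129.

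The 662 shared sites made up 18.3% of the PWK list (17.0 to 19.5%) and 29.5% of the SPRET list (27.6 to 31.4%). The union of both lists held 5210 sites, of which 12.7% were shared. To compare lists of one length, the PWK list was also limited to its highest ranks, as many as the SPRET list holds. Of these, 569 were shared, which is 25.3% (23.6 to 27.2%) of each list of that length. The 1382 PWK peaks below that limit held 93 shared sites, 6.73% (5.52 to 8.17%). The last PWK peak inside the limit, near Tmem163, had an IDR score of 889 and an enrichment score of 12. The first peak outside it, near S1pr1, had the same IDR score of 889 and the same enrichment score of 12, so the limit of the shorter list falls within a tie.

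The same length was used to place the pair against the third strain. PWK and C57/Bl6 then shared 947 peaks, 42.2% (40.2 to 44.2%). SPRET and C57/Bl6 shared 815 peaks, 36.3% (34.3 to 38.3%). The overlap of PWK with SPRET, 25.3%, was the lowest of the 3 pairs, with an interval that did not meet that of either other pair. Median enrichment scores were 14 in the PWK list, 19 in the SPRET list and 46 in the C57/Bl6 list, and the part of such differences between lists in these shares was not tested. Strain and library preparation cannot be told apart.

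Sharing fell steeply with rank in both lists, as the plot of shared peaks by rank shows. Of the PWK peaks ranked 1 to 100, 54 were shared, 54.0% (44.3 to 63.4%). Of the SPRET peaks ranked 1 to 100, 64 were shared, 64.0% (54.2 to 72.7%). At ranks 501 to 1000 the shares were nearly equal, 34.2% in PWK (30.2 to 38.5%) and 34.6% in SPRET (30.6 to 38.9%). At ranks 1001 to 1500 they were 17.2% in PWK (14.1 to 20.8%) and 25.8% in SPRET (22.2 to 29.8%), and among the remaining SPRET peaks 14.2% were shared. Presence in the C57/Bl6 list fell more slowly. It was 97% for the first 100 peaks of PWK and also of SPRET, and at ranks 1001 to 1500 it was 80.2% in PWK and 71.2% in SPRET. These shares include the shared peaks. Among the first 100 peaks, 46 in PWK and 36 in SPRET were strain-specific, and most of these were peaks of the third strain as well.

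**Figure D1:**
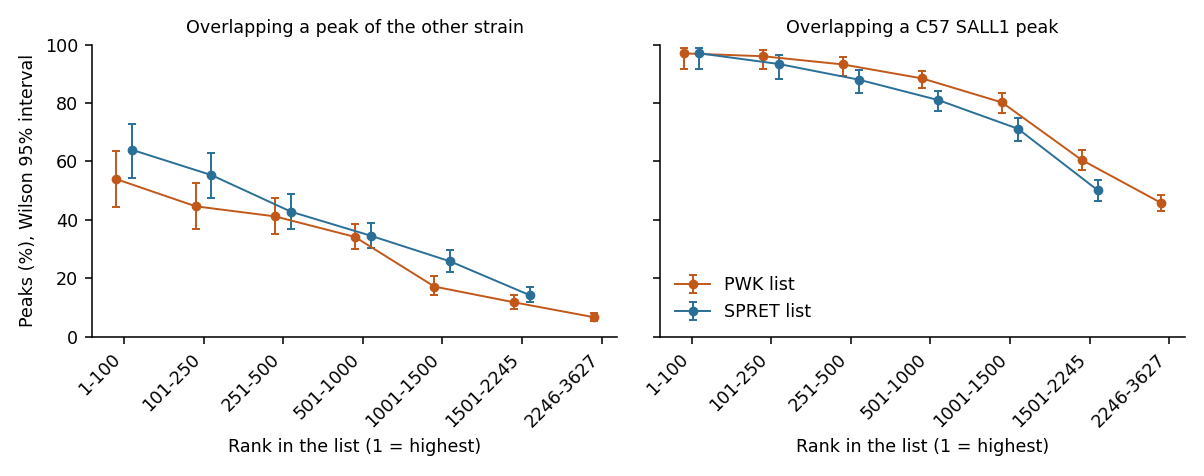
Share of peaks (y axis, %) found in the other wild-derived strain and in the C57/Bl6 list, for bins of peak rank (x axis) within the PWK and SPRET lists, with 95% Wilson intervals as bars. At ranks 1001 to 1500 sharing stood at 17.2% of PWK and 25.8% of SPRET peaks, against 54.0% and 64.0% in the first 100.

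Positions within shared sites are described only, since the rule asks for overlap. The median overlap was 255 bp, beside median peak widths of 302 bp in PWK and 287 bp in SPRET. The median distance between centres was 43 bp, and 556 of 662 pairs (84.0%) had centres within 100 bp of each other. Ranks in PWK and SPRET followed one another only in part, with a Spearman rho of 0.549 over the 662 pairs, given as a description because neighbouring peaks and both scores share their source libraries. In 149 pairs both peaks were in the top 500 of their list. The median rank was 785 in PWK and 695 in SPRET.

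Some shared sites stood very far apart in rank, and these were chosen after their values were seen. A site upstream of Lifr, the receptor of leukemia inhibitory factor, ranked 2966 in PWK and 37 in SPRET, with enrichment scores of 9 and 62. A site upstream of Tbc1d8 ranked 29 in PWK and 1620 in SPRET. The site just inside Mpeg1, the macrophage gene for perforin-2, ranked 14 in PWK and 410 in SPRET. A site upstream of Nlrp3, the inflammasome sensor, ranked 441 in PWK and 22 in SPRET. Being shared by overlap therefore did not mean being alike in strength order.

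**Figure D2:**
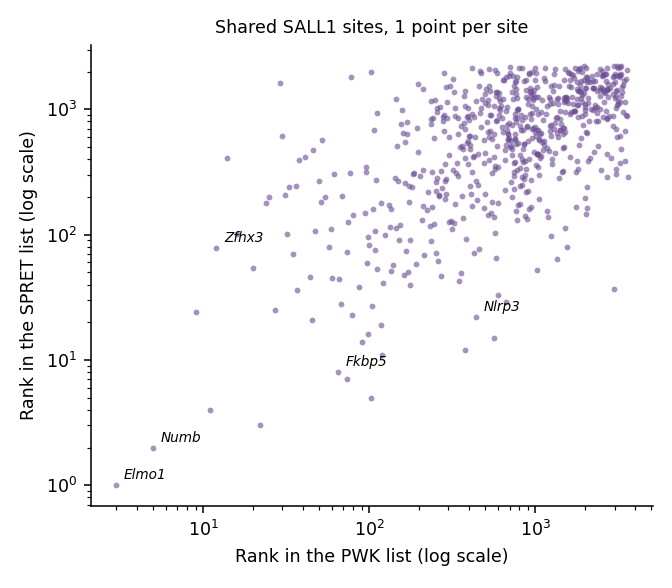
Rank in the SPRET list (y axis, log scale) against rank in the PWK list (x axis, log scale) for the 662 shared sites, 1 point per site, with Elmo1, Numb, Fkbp5, Zfhx3 and Nlrp3 named. Points spread widely around the diagonal (Spearman rho 0.549), with Elmo1 and Numb at the top of both lists.

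The strongest PWK-only peaks were, for the most part, strong peaks of C57/Bl6 microglia that the SPRET list lacked. The PWK-only peak upstream of Scel ranked 2 in PWK and 33 in C57/Bl6, and the nearest SPRET peak lay 8677 bp away. That nearest peak belongs to the shared Scel site described above. A peak in an intron of Rb1, with Lpar6, a receptor of lysophosphatidic acid, as the nearest start, ranked 7 in PWK and 3 in C57/Bl6. A peak upstream of Lgmn, the lysosomal protease legumain, ranked 10 in PWK and 5 in C57/Bl6. A peak in Hpgd, which encodes the enzyme that inactivates prostaglandins, ranked 17 in PWK and 10 in C57/Bl6. A peak upstream of Apbb1ip, a Rap1 effector that activates integrins, ranked 15 in PWK and 12 in C57/Bl6. The nearest SPRET peaks to the Lpar6, Lgmn and Apbb1ip sites lay between 5384 and 14872 bp away.

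Other leading PWK-only peaks were weaker in C57/Bl6 or lay in sequence that is hard to place. The peak in Tex14, a gene of germ-cell bridges, ranked 8 in PWK and 1996 in C57/Bl6. The peak nearest to Trim33, a ubiquitin ligase of the SMAD pathway, ranked 13 in PWK and 59 in C57/Bl6. Rank 1 of the PWK list, with an enrichment score of 238, lay on an unplaced scaffold. Ranks 4 and 6 lay in Gm47283 on chromosome Y, where repeats covered 61.6% and 59.0% of the peak. The PWK list held 4 peaks on Y and 2 on unplaced scaffolds. The SPRET list held 0 peaks on either. The sex of the mice is not given, so a sex difference between the libraries cannot be told apart from a strain difference there, and restricting both lists to autosomes left 18.1% of PWK and 29.2% of SPRET peaks shared.

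The strongest SPRET-only peaks likewise had counterparts in C57/Bl6. The peak in an intron of Rnf169, whose product binds ubiquitin at DNA breaks, ranked 6 in SPRET and 44 in C57/Bl6, with the nearest PWK peak 15054 bp away. The peak in Rad51b, a recombination repair gene, ranked 18 in SPRET and 17 in C57/Bl6. At the promoter of H2-DMb2, which helps load peptides onto MHC class II, the SPRET peak ranked 20 and the C57/Bl6 peak ranked 25. The peak in Mertk, a receptor through which phagocytes take up dying cells, ranked 30 in SPRET and 181 in C57/Bl6. The peak upstream of Csf2ra, the alpha chain of the GM-CSF receptor, was lower in the third strain, at rank 13 in SPRET and 2658 in C57/Bl6. Further leading SPRET-only peaks lay in Cttnbp2nl (rank 10), near Nat9 (rank 17), in Arhgap39 (rank 26) and upstream of Clec9a (rank 31).

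Peaks found in 1 wild-derived strain and in neither other list used here were fewer and ranked lower than the strain-specific peaks that the C57/Bl6 list held. They numbered 1167 in PWK, with a median rank of 2539, against 1581.5 for PWK-only peaks in that list. In SPRET they numbered 596, with a median rank of 1632.5, against 1083. The highest such PWK peak on an autosome ranked 58 and lay in an intron of Samd12, with Ext1, a polymerase of heparan sulfate chains, as the nearest start. The highest such SPRET peak ranked 34 and lay in an intron of Hs3st1, a heparan sulfate sulfotransferase, and the nearest PWK peak was 2918711 bp away. Both are among the sequences printed above. Another 1798 PWK-only peaks and 987 SPRET-only peaks were in the C57/Bl6 list, 60.6% (58.9 to 62.4%) and 62.4% (59.9 to 64.7%). Of the 662 shared sites, 603 PWK peaks (91.1%) overlapped a C57/Bl6 peak, and 59 did not.

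Seen from the third strain, the 500 highest C57/Bl6 peaks fell into 4 outcomes. Of these, 158 overlapped a peak in both wild-derived strains and 96 overlapped none. A further 155 overlapped a PWK peak without a SPRET peak, and 91 overlapped a SPRET peak without a PWK peak. The median C57/Bl6 rank was 1257 for the PWK peaks of shared sites, 3708.5 for PWK-only and 3211 for SPRET-only peaks.

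Few strain-specific peaks were near misses of the overlap rule. A SPRET peak lay within 500 bp of 64 of the 2965 PWK-only peaks (2.16%). A PWK peak lay within 500 bp of 53 of the 1583 SPRET-only peaks (3.35%). Within 10 kb the counts were 633 PWK-only peaks (21.3%) and 500 SPRET-only peaks (31.6%). Within 100 kb the shares were 53.1% of PWK-only and 67.8% of SPRET-only peaks.

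The classes lay in like places. Introns held 52.0% of shared, 52.2% of PWK-only and 52.8% of SPRET-only peaks. Intergenic sequence held 35% of shared, 33.8% of PWK-only and 35.2% of SPRET-only peaks. Promoters, taken as 1000 bp upstream to 100 bp downstream of an annotated start, held 9.67%, 9.04% and 7.45%. By chromosome, the share of PWK peaks that were shared ran over the autosomes between 12.9% on chromosome 3 and 24.0% on chromosome 19. The share of SPRET peaks ran between 19.5% on chromosome 17 and 40.9% on chromosome 13. On X, 21 sites were shared, 25.0% of 84 PWK and 43.8% of 48 SPRET peaks.

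Counting by gene is coarser than counting by site, so more overlap is built into it, and how much was not tested. Each peak was given to the protein-coding gene with the nearest annotated start. Of 21924 genes, 2138 had at least 1 PWK peak and 1423 had at least 1 SPRET peak, which is a background of 9.75% and 6.49% of all genes. Both kinds of peak were present at 871 genes. At 555 of these, 2.53% of all genes, at least 1 site was shared, and at the other 316 the strains had peaks at different places. Of the PWK-only peaks, 1336 (45.1%) lay nearest to a gene with a SPRET peak. Of the SPRET-only peaks, 928 (58.6%) lay nearest to a gene with a PWK peak.

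Some genes gathered many sites. Ifngr1, the ligand-binding chain of the interferon-gamma receptor, had the most shared sites of any gene, 5, with 3 PWK-only and 3 SPRET-only peaks. Dock4, an activator of Rac and Rap, had 4 shared, 10 PWK-only and 5 SPRET-only peaks. Srgap2, a GTPase activating protein, had 4 shared, 7 PWK-only and 6 SPRET-only peaks. Irf2, a transcription factor of the interferon response, had 4 shared, 5 PWK-only and 1 SPRET-only peaks. Qk, which encodes the RNA-binding protein quaking, had 3 shared, 10 PWK-only and 19 SPRET-only peaks, the most SPRET-only peaks of any gene. Nav3 had 2 shared, 19 PWK-only and 9 SPRET-only peaks, the most PWK-only peaks of any gene. Marcks, a protein kinase C substrate that binds actin, had 2 shared, 12 PWK-only and 6 SPRET-only peaks.

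A few genes were lopsided. Pla2g4a, the phospholipase that releases arachidonic acid, had 1 shared, 10 PWK-only and 0 SPRET-only peaks. Fkbp5 had 1 shared, 2 PWK-only and 7 SPRET-only peaks. Pde3b, a phosphodiesterase of cyclic nucleotides, was even, with 1 shared, 8 PWK-only and 7 SPRET-only peaks. Because the PWK list is longer, an equal count of peaks is a larger part of the SPRET list.

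Genes of microglia identity carried SALL1 peaks in both strains more often than all genes did. Of 36 such genes, 24 had a PWK peak, 25 had a SPRET peak and 11 had a shared site, against the 9.75%, 6.49% and 2.53% of all genes. Of 45 transcription factors of microglia, 29 had a PWK peak, 23 a SPRET peak and 14 a shared site. Of 33 purinergic, chemokine and phagocytic receptors, 18 had a PWK peak, 19 a SPRET peak and 7 a shared site. These lists were drawn up with earlier results of these data known, so their counts describe the lists and are not independent evidence. Long genes with wide intergenic flanks collect more peaks by the nearest-start rule, and the part this plays was not tested.

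The Sall1 locus itself held shared and strain-specific sites. One shared site lay in the first intron, 1534 bp from the start for the PWK peak, and ranked 147 in PWK and 506 in SPRET. The other lay at −274687 bp for the PWK peak, ranked 1675 in PWK and 1265 in SPRET, and was absent from the C57/Bl6 list. Besides these, 5 PWK-only and 10 SPRET-only peaks had Sall1 as their nearest start. The highest of them was a SPRET-only peak at −138478 bp, at rank 97. Farther upstream a PWK-only peak at −352627 bp (rank 524) and a SPRET-only peak at −348802 bp (rank 357) lay 3515 bp apart, and both were in the C57/Bl6 list.

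At P2ry12 and Tgfbr2 both strains had peaks, and none of them overlapped, as was the case at 316 of the 871 genes with peaks of both strains. P2ry12, the ADP receptor that guides microglial processes, had 6 PWK-only peaks, the best at rank 420, and 3 SPRET-only peaks, the best at rank 42. Tgfbr2, the type II receptor for TGF-beta, had 6 PWK-only peaks with a best rank of 200. It had 4 SPRET-only peaks with a best rank of 260. At Tgfbr2 the PWK peak of rank 200 and the SPRET peak of rank 470 were 241 bp apart, both in introns of the gene and both in the C57/Bl6 list.

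**Figure D3:**
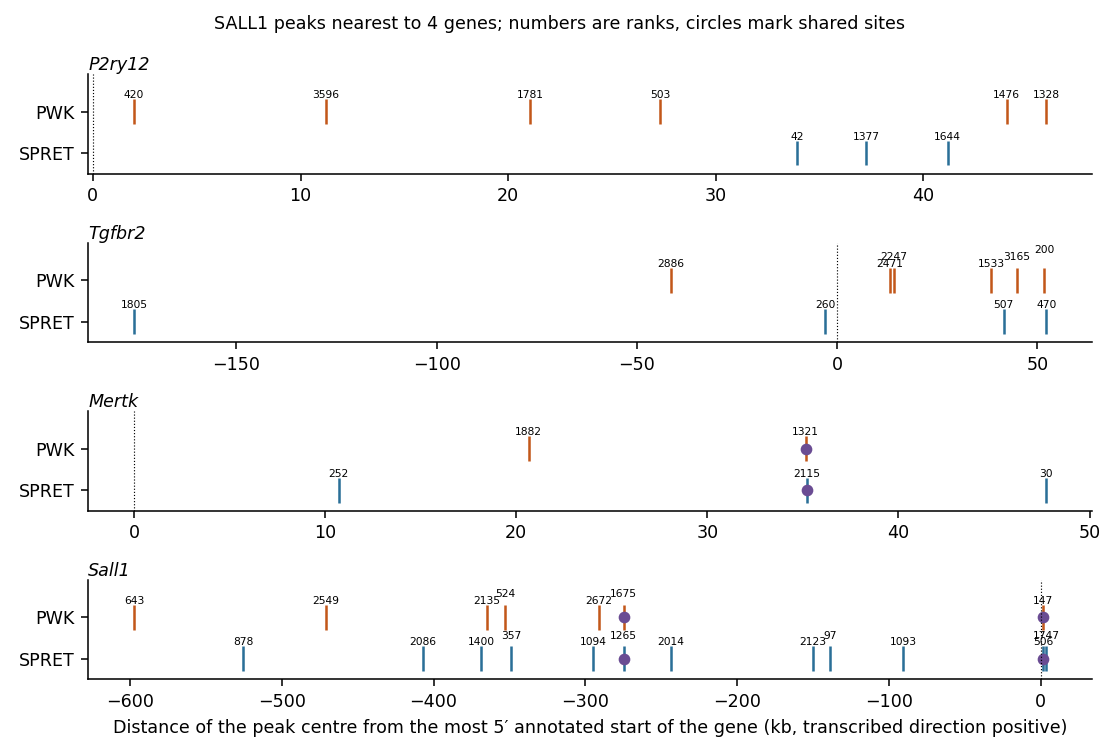
SALL1 peaks with P2ry12, Tgfbr2, Mertk or Sall1 as the nearest gene, placed by the distance of the peak centre from the most 5′ annotated start (x axis, kb), PWK above SPRET. Numbers are ranks within each list, and circles mark shared sites, of which Sall1 had 2, Mertk 1 and the other 2 genes 0.

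Other microglia genes fell on either side. Mertk had 1 shared site (rank 1321 in PWK, 2115 in SPRET), 1 PWK-only peak and the 2 SPRET-only peaks of ranks 30 and 252. The promoter of Csf1r, the receptor of the survival factor CSF1, was a shared site ranked 1175 in PWK and 153 in SPRET. Slc2a5, the fructose transporter, had 3 PWK-only peaks, the best at rank 568, and 0 SPRET peaks. Cx3cr1, the fractalkine receptor, had 0 PWK peaks and 2 SPRET-only peaks, the best at rank 1098, one of them at rank 264 in C57/Bl6. Mef2c, a transcription factor of microglia, had 3 shared, 8 PWK-only and 4 SPRET-only peaks. Its intronic site ranked 139 in PWK and 57 in SPRET. Its far upstream PWK-only peak ranked 43, with the nearest SPRET peak 1912 bp away.

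The TGF-beta pathway, whose ligand binds a receptor pair and whose SMADs carry the signal to DNA, was the subject of a list of 33 genes. Of these, 10 (30.3%) had a PWK peak, 9 (27.3%) had a SPRET peak and 3 (9.09%) had a shared site, beside 9.75%, 6.49% and 2.53% of all genes. The shared sites were those of Smad7, an inhibitory SMAD, of Itgav, an integrin chain that activates latent TGF-beta, and of Zeb2, a SMAD-interacting repressor. The Smad7 site, in an intron of Ctif, ranked 96 in PWK and 318 in SPRET. Zeb2 had 4 shared, 5 PWK-only and 5 SPRET-only peaks, and its best shared site ranked 270 in PWK and 47 in SPRET. Tgfbr1, the type I receptor, had 5 PWK-only and 2 SPRET-only peaks, at ranks of 1702 or lower in strength and none of them in the C57/Bl6 list. Smad3 had 1 PWK-only peak (rank 1003) and 1 SPRET-only peak (rank 1013), 20599 bp apart.

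Among 28 cytokine and interferon response genes, 11 (39.3%) had a PWK peak, 7 (25%) had a SPRET peak and 6 (21.4%) had a shared site, beside 9.75%, 6.49% and 2.53% of all genes. Nlrp3 had 3 shared sites, including its promoter. The site at −9968 bp from the start of Il1b, the gene of interleukin 1 beta, ranked 459 in PWK and 77 in SPRET, and the gene also had 3 PWK-only and 2 SPRET-only peaks. Tnfaip3, an inhibitor of NF-kappaB signalling, had 5 PWK-only and 0 SPRET peaks. Among 27 genes of lipid handling and disease-associated microglia, 8 (29.6%) had a PWK peak, 7 (25.9%) had a SPRET peak and 2 (7.41%) had a shared site, against the same shares of all genes. There Abcg1, a sterol exporter, had 3 PWK-only peaks, and Abca1, a related exporter, had 1 SPRET-only peak.

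Marker lists of microglia and of other cells were counted beside the 9.75% of all genes with a PWK peak and the 6.49% with a SPRET peak. Of 10 defining microglia markers, 7 had a PWK peak and 6 a SPRET peak. Of 15 neuron markers, none had a peak in either strain. Of 14 oligodendrocyte lineage genes, 0 had a PWK peak and 1, Mbp, had a SPRET peak, at rank 1279. Of 17 border macrophage markers, 9 (52.9%) had a PWK peak and 6 (35.3%) had a SPRET peak, with 2 shared, at Dab2 and Maf. Of 20 monocyte and lymphocyte genes, 3 (15%) had a PWK peak and 1 (5%) had a SPRET peak. That one, Ccr2, the receptor that draws monocytes into tissue, had 2 shared sites with best ranks of 54 in PWK and 198 in SPRET. Of 14 astrocyte and endothelial genes, 4 (28.6%) had a PWK peak, 2 (14.3%) a SPRET peak and 0 a shared site. The border macrophage list and the joint astrocyte and endothelial list thus stood above the share of all genes, and neuron markers below it. In the shorter marker set that held the 10 microglia markers, 0 of 4 astrocyte markers had a peak in either strain. Of its 3 endothelial markers, 1 had a PWK peak and 1 had a SPRET peak. A peak near a marker says nothing of its transcription.

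**Figure D4:**
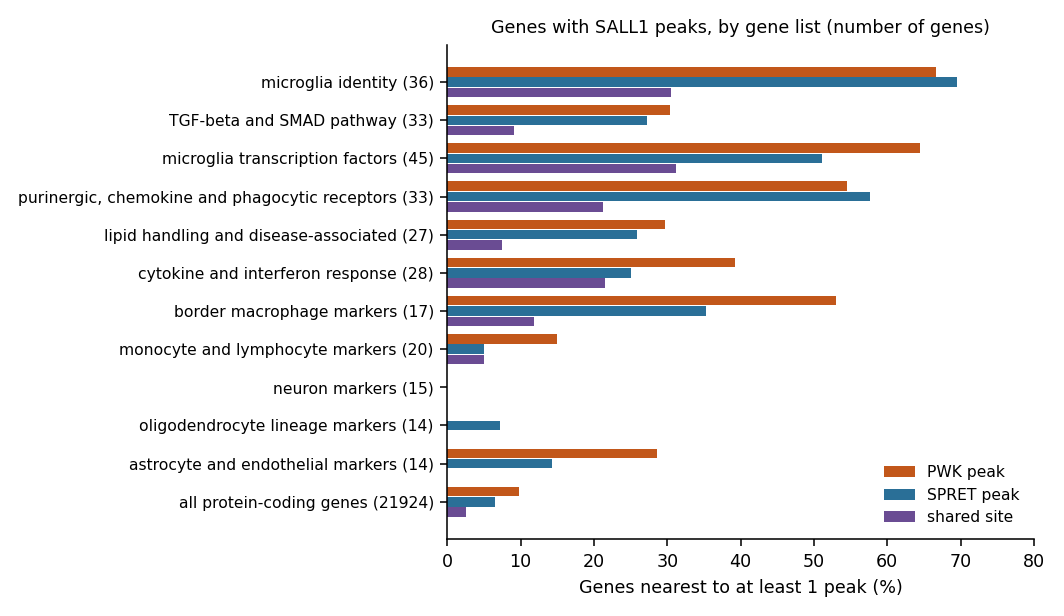
Share of the genes of each list (x axis, %) nearest to at least 1 PWK peak, SPRET peak or shared site, with the number of genes in brackets. Microglia identity genes stand at 24, 25 and 11 of 36, and the row of all 21924 genes gives the background of 9.75%, 6.49% and 2.53%.

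Other marks measured in C57/Bl6 cells, none of which was used to sort the peaks, were found at shared sites more often than at strain-specific sites. The SMAD4 list used held 4024 peaks, fewer than the study describes, so its shares hold for this list only. SMAD4 peaks overlapped 32.5% of shared sites (29.0 to 36.1%), 15.8% of PWK-only (14.5 to 17.2%) and 20.5% of SPRET-only peaks (18.6 to 22.6%). Of all C57/Bl6 SALL1 peaks they overlapped 14.6%. Peaks of p300, a histone acetyltransferase and co-activator, overlapped 57.3% of shared sites (53.5 to 61.0%), 28.0% of PWK-only (26.4 to 29.7%) and 35.6% of SPRET-only peaks (33.3 to 38.0%). H3K27ac regions of WT PU.1 nuclei, which hold microglia, covered 93.2%, 75.1% and 79.7% of these classes. Regions of neuronal (NeuN) nuclei covered 21.1%, 17.9% and 17.8%, and those of Olig2 nuclei 17.7%, 16.8% and 18.7%, so the classes differed little in other brain cells. Of the 2 PU.1 libraries, library 1 covered fewer sites (71.0%, 43.2% and 53.3%), with the classes in the same order.

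**Figure D5:**
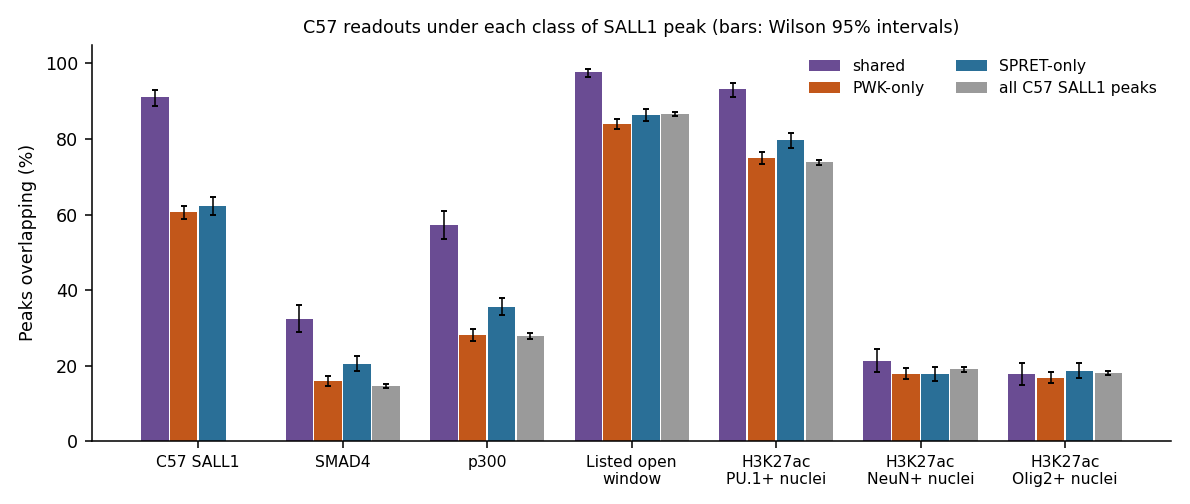
Share of shared, PWK-only and SPRET-only peaks and of all C57/Bl6 SALL1 peaks (y axis, %) overlapping each readout of C57/Bl6 cells (x axis), with 95% Wilson intervals as bars. SMAD4, p300 and H3K27ac of PU.1 nuclei stood higher at shared sites (32.5%, 57.3% and 93.2%) than at PWK-only (15.8%, 28.0% and 75.1%) and SPRET-only peaks (20.5%, 35.6% and 79.7%).

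Because shared sites rank higher, the classes were also compared at like rank. In the PWK top 500, SMAD4 overlapped 37.1% of shared (31.0 to 43.5%) and 31.9% of PWK-only peaks (26.7 to 37.6%), and these intervals met. At PWK ranks 501 to 1500 the values were 32.7% (27.2 to 38.6%) and 21.8% (19 to 24.9%), and the intervals did not meet. For p300 the values were 63.4% and 54.0% in the PWK top 500, and 58.8% and 39.8% at ranks 501 to 1500. In the SPRET top 500, SMAD4 overlapped 40.2% of shared and 37.4% of SPRET-only peaks, and p300 overlapped 71.7% and 61.0%. Among the leading peaks of each list the SMAD4 shares of the classes thus lay close together, and further down they lay apart. Below PWK rank 1500, SMAD4 overlapped 26.5% of shared and 11.3% of PWK-only peaks, and p300 overlapped 47.5% and 19.8%. At SPRET ranks 501 to 1500 the values were 29.1% and 20.1% for SMAD4, and 50.3% and 37.2% for p300. Among the remaining SPRET peaks they were 23.6% and 14.6% for SMAD4, and 42.5% and 24.1% for p300.

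Presence in the C57/Bl6 list divided the strain-specific peaks more sharply than strain did. Both marks, SMAD4 and p300, were themselves measured in C57/Bl6 cells, and peaks absent from that list ranked lower. The part of either in this split was not tested. Of PWK-only peaks that were in the C57/Bl6 list, 23.2% overlapped SMAD4 and 40.8% overlapped p300. Of those absent from it, 4.46% and 8.40% did. Of SPRET-only peaks in the C57/Bl6 list, 27.8% overlapped SMAD4 and 49.4% overlapped p300. Of those absent from it, 8.56% and 12.8% did. Even so, 65.9% of the PWK-only and 69.6% of the SPRET-only peaks absent from the C57/Bl6 list lay on windows of open chromatin listed for C57/Bl6 microglia. In the EKO SALL1 list, which held 7 peaks, 2 overlapped shared sites (upstream of Prdm1 and in Il17ra), 2 overlapped PWK-only peaks (in Heatr1 and Pik3cb) and 0 overlapped SPRET-only peaks.

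Motif letters were counted in the central 200 bp of each peak on the mm10 reference, on both strands, beside the centres of all 132879 open windows that could be read. The 10 motifs were PU.1 (GAGGAAGT), a composite of PU.1 and an IRF (GGAANNGAA), MEF2 (CTAAAAATA), an AT-rich core of SALL factors (AATATT), RUNX (TGTGGTT), C/EBP (TTGCGCAA), SMAD (CTGTCTGG), AP-1 (TGANTCA), an E-box (CACGTG) and part of the CTCF site (CCANNAGGG). The PU.1 motif and the composite can share the letters GGAA, and MEF2 and the AT-rich core can share AATA. Letters in the reference say nothing of the PWK or SPRET allele, and a match is not a binding site.

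The composite motif was present in 20.4% of shared sites (17.5 to 23.6%), 16.4% of PWK-only (15.1 to 17.8%) and 16.3% of SPRET-only peaks (14.6 to 18.2%), beside 9.72% of open windows. PU.1 letters were present in 13.7%, 13.1% and 13.3%, beside 9.34%. RUNX letters were present in 10.3% (8.18 to 12.8%), 7.46% (6.57 to 8.46%) and 6.44% (5.34 to 7.76%), beside 5.55%. CTCF letters were present in 4.53%, 2.73% and 3.10%, below the 6.22% of open windows. SMAD letters, at 1.96%, 1.92% and 2.21%, stood near their 1.92% in open windows. MEF2 letters, at 1.66%, 1.38% and 1.71%, stood above their 0.50% in open windows. In all C57/Bl6 SALL1 peaks the composite stood at 16.2%, near its share in both strain-specific classes. In the printed runs, the PWK-only Scel site holds a PU.1 match and a composite match.

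The AT-rich core was more frequent in PWK-only peaks. AATATT was present in 13.2% of PWK-only peaks (12 to 14.4%), against 8.91% of shared sites (6.97 to 11.3%) and 8.34% of SPRET-only peaks (7.08 to 9.80%), and in 2.49% of open windows. All C57/Bl6 SALL1 peaks stood at 11.0%. Among peaks absent from the C57/Bl6 list the values were 17.7% of 1167 PWK-only and 9.40% of 596 SPRET-only peaks. Among those in it they were 10.2% and 7.70%, so the higher count lay in PWK-only peaks absent from that list. Base composition moved with this count. The median GC content of the 200 bp was 39.5% for PWK-only and 44.0% for SPRET-only peaks absent from the C57/Bl6 list, and 50.5% for open windows, and its part in the motif counts was not tested. Over whole peaks the median GC content was 43.1% in the PWK list, 45% in the SPRET list and 44.7% in the C57/Bl6 list.

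H3K27ac of EKO and WT microglia was measured in 1000 bp windows of open chromatin, and this shows how the C57/Bl6 chromatin under the sites changed when SALL1 was lost. The C57/Bl6 SALL1 list lacked 1167 PWK-only and 596 SPRET-only peaks, and the windows were not split by this. A window could count in more than 1 class, as 30 shared, 73 PWK-only and 59 SPRET-only windows did before low values were filtered out. Of 918 tested windows at shared sites, 57 (6.21%) lost and 35 (3.81%) gained H3K27ac in EKO. Of 3035 at PWK-only peaks, 192 (6.33%) lost and 264 (8.70%) gained. Of 1698 at SPRET-only peaks, 148 (8.72%) lost and 82 (4.83%) gained. Over all 55285 windows tested the background was 7.56% losing and 8.68% gaining. Losses stood a little below this background at shared and PWK-only sites and a little above it at SPRET-only peaks. Gains stood below it at shared and SPRET-only sites and at it in PWK-only peaks. Neither order held for every setting or every set of libraries. Without the filter on low values, losses took 4.63% of shared, 3.86% of PWK-only and 5.78% of SPRET-only windows, beside 2.19% of all windows. Gains then took 2.52%, 5.78% and 3.45%, beside 2.89%. A window counted as changed where limma, run on quantile-normalized log2(tags + 1), gave a fold above 2 with an adjusted p (Benjamini-Hochberg) under 0.05. The median log2 change, EKO minus WT, was −0.14, −0.07 and −0.18 in the 3 classes and −0.03 over all windows.

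These counts depend on single libraries. EKO library 1 stood at a higher level throughout, with a median of 18.1 scaled tags per window, against 7.47 in EKO library 2 and 9.03 and 7.96 in the WT libraries. Without quantile normalization the median change over all windows was 0.28 and those of the classes were 0.13 (shared), 0.23 (PWK-only) and 0.12 (SPRET-only), each of the opposite sign to the normalized value and below the median of all windows. The counts then were 2 losing and 1 gaining at shared sites, 4 and 21 at PWK-only peaks, and 7 and 5 at SPRET-only peaks. As shares these were 0.22% and 0.11%, 0.13% and 0.69%, and 0.41% and 0.29%, beside 0.13% losing and 0.81% gaining of all windows. Without WT library 1 limma called 0 windows in any class, with a lowest adjusted p of 0.076 and 11533 windows at an unadjusted p below 0.05. Without WT library 2, EKO library 1 and EKO library 2 in turn, the median log2 change was −0.17, −0.12 and −0.13 at shared sites. At PWK-only peaks it was −0.08, −0.04 and −0.06, and at SPRET-only peaks −0.19, −0.17 and −0.16. Over all windows it was −0.02 in each of these fits. The gaining windows then numbered 16, 11 and 9, then 115, 53 and 70, and then 33, 7 and 14. Without EKO library 1, gains took 1.25% of shared, 1.91% of PWK-only and 0.436% of SPRET-only windows, beside 0.989% of all windows. Without EKO library 2, gains took 0.968%, 2.26% and 0.810% of these classes, beside 1.33% of all windows. Gains at PWK-only peaks thus stood above the background without either EKO library, and those at shared sites stood above it without EKO library 1. Without WT library 2 the gains were 1.73%, 3.74% and 1.92%, beside 2.71%. On recovered tags from all 4 libraries edgeR called 58, 189 and 150 losing windows, and DESeq2 called 48, 152 and 129. As shares these were 6.32%, 6.23% and 8.83% with edgeR, beside 7.01% of all windows. With DESeq2 they were 5.23%, 5.01% and 7.597%, beside 5.13%, so shared sites then stood just above the background. Gains took 4.58%, 9.79% and 5.42% with edgeR, beside 10.58% of all windows. With DESeq2 gains took 3.38%, 7.55% and 4.12%, beside 7.76%, so gains stood below the background in every class with both tools.

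At single leading sites of the classes the direction of change differed. The window of the PWK-only peak near Trim33 had 55.2 and 22.4 scaled tags in EKO, against 89.5 and 56.7 in WT. Its log2 change after quantile normalization was −1.27 ± 0.27 (SE), with a limma adjusted p of 0.00164 and an edgeR adjusted p of 0.000503. Both EKO libraries were below both WT libraries, with EKO library 1 close to the lower WT library. The window of the shared Abca9 site had 44.2 and 14.2 tags in EKO, against 50.1 and 49.8 in WT, a change of −1.31 ± 0.32 (limma adjusted p of 0.00514). There too the groups did not overlap. At the shared Numb site the tags were 43.2 and 11.2 in EKO, against 39.0 and 32.8 in WT, and the change of −1.06 ± 0.36 passed with limma (adjusted p of 0.0385) and not with edgeR (adjusted p of 0.075). The Numb groups overlapped, with EKO library 1 the highest of the 4. The windows of the PWK-only peaks nearest to Apbb1ip, Hpgd and Smap2 changed by −0.91, −0.91 and −1.02 (limma adjusted p of 0.00379, 0.00651 and 0.00496). Of these, Smap2 alone passed the fold limit with limma. Windows of the PWK-only peaks nearest to Scel, Lpar6, Tex14 and Lgmn changed by −0.29, −0.009, 0.31 and 0.14 and did not pass.

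The window of the SPRET-only Rnf169 peak had 271 and 103 tags in EKO, against 107 and 46.8 in WT, a change of 1.01 ± 0.23 (limma adjusted p of 0.00252). With edgeR the change was 0.84 (adjusted p of 0.00392), under the fold limit, so the call was lost, and EKO library 2 lay just below WT library 1. The SPRET-only peak in Mertk had 799.9 and 287.5 tags in EKO, against 377.7 and 168.2 in WT, a change of 0.66 ± 0.15 (limma adjusted p of 0.00353) that stayed under the fold limit. The window of the shared Elmo1 site had 333.2 and 94.8 tags in EKO, against 188.8 and 89.6 in WT, a change of 0.22 ± 0.19 (limma adjusted p of 0.442). The Elmo1 window did not pass, although it carries a leading SALL1 peak. All adjusted p-values cover the 55285 windows, and the calls named here are among those lost without WT library 1.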

How the data were processed

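Sorted microglia or nuclei were profiled by ChIP-seq, and 1 list of SALL1 peaks per group was used, from 2 libraries in PWK and 2 in SPRET mice. The submitters' processing notes name Bowtie2, HOMER, DESeq2 and the mm10 build, without versions. According to the methods of the study, the authors mapped reads to mm10, used HOMER with loose thresholds to call peaks in each library, and retained peaks with an IDR below 5% between libraries. The deposited peak lists hold an IDR score, scaled by the authors, and a whole-number enrichment score whose scale is not given in the sources used here, so peaks were compared by rank within a list only. The methods do not say how PWK and SPRET reads were handled, and how mapping to mm10 shifted or lost their peaks was not measured. The C57/Bl6 SALL1 and SMAD4 lists used here are shorter than those the study describes, so an absence from them holds for these lists only. The H3K27ac values are a signal that the authors deposited as HOMER tags per open window, scaled per library. Summed over these windows, the recovered tags were 13372773 and 3954550 in the WT libraries and 9681699 and 4447485 in the EKO libraries. These sums are not library totals.

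Peaks were paired at an overlap of 1 bp, in full and with the PWK list limited to its top 2245 peaks, the length of the SPRET list. Nearest starts and places came from a GENCODE annotation of mm10, and sequences and motif letters from the mm10 reference. H3K27ac was tested in windows with a mean above 16 scaled tags, with limma 3.58.1 in R 4.3.3 on quantile-normalized log2 values with a pseudocount of 1. The values are scaled tags, which is why limma took the place of a count test. The scaling could be undone (100% of 133129 windows gave whole tags in every library, within 0.05 of a tag). On the recovered tags edgeR 4.0.16 called 3878 losing and 5851 gaining windows, and DESeq2 1.42.0 called 2837 and 4290, beside 4177 and 4800 by limma. The labels do not say whether the libraries within a group came from separate animals, so p-values measure the spread between these libraries, which may be technical. Both the overlap count and the H3K27ac test were tested on simulated data. Python 3.11.15 with pandas 2.3.3, scipy 1.17.1 and pysam 0.24.0 was used for the rest.

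The classes of peaks and the 11 gene lists were chosen with earlier results of these data known. Genes were named by rule, as the nearest genes of the 10 leading sites of each class and the 5 genes with the most peaks in each class, and then listed genes with a peak, up to about 30. Genes named beyond these, and the pairs far apart in rank, were chosen after their values were seen. Alternatives covered the overlap, the IDR limit, the peaks used, the list length, and for H3K27ac the scaling, filter, pseudocount, tool, pairing and each library. The 7 files not used here hold H3K27ac lists of EKO nuclei and a SMAD4 list labelled mutant. One leading SPRET-only site is not reported here.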

Additional observations from a re-analysis of the deposited data

How the results depend on the processing

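Of 79 alternative values, 41 stayed near the value reported and 38 moved. Restricting both lists to autosomes or to peaks over 3000 bp from a start, or asking for 50% of each peak to be covered, left the shares of shared peaks close to those reported. With an IDR score of at least 830 in both lists, 20.72% of PWK and 33.78% of SPRET peaks were shared, and 22.09% with the PWK list limited to its usual length, which was then longer than the SPRET list of 1495 peaks and so is not a share at equal length. On listed open windows the shares were 20.57% of PWK and 32.01% of SPRET peaks. With peak edges at most 500 bp apart they were 20.02% of PWK and 31.85% of SPRET peaks. Between the top 1000 peaks of each list 30.7% were shared. The cause of these shifts was not tested, beyond the fewer peaks or wider rule that each uses.

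The H3K27ac counts moved most. Values as deposited gave 2 losing and 1 gaining windows at shared sites, 4 and 21 at PWK-only sites and 7 and 5 at SPRET-only sites. Leaving out 1 library in turn gave 0 to 21 losing windows at shared, 0 to 62 at PWK-only and 0 to 54 at SPRET-only sites. Gaining windows then numbered 0 to 16, 0 to 115 and 0 to 33. A group left with 1 library was assumed to vary like the other group, so these counts show the dependence on libraries only. With the library number as a replicate block, 59, 205 and 155 windows lost and 35, 269 and 85 gained. The numbers only name the libraries (correlation of the deviations of same-numbered libraries 0.036), so the samples were not treated as paired. The other filter, pseudocount and tools stayed within 1.5 times the counts reported. Their place against all windows was less stable. Without the filter all 133129 windows were tested, and losses then stood above the 2.19% of all windows in every class. With the filter, limma on quantile-normalized values of all 4 libraries put losses above the share of all windows at SPRET-only sites only. DESeq2 put them above it at shared sites too (5.23%, beside 5.13%). Depth is unknown for the SALL1 lists, so a peak listed in 1 strain may be below the detection limit in the other.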
